A study of Mus musculus with 6 samples.

Results

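Protocadherins are cell-surface adhesion proteins of the cadherin superfamily. All 70 gene rows whose symbol is Pcdh followed by a digit or by a, b or g were taken from the 27998 gene rows of the deposited table, and their raw counts of unique molecular identifiers (UMIs, each marking 1 captured RNA molecule) were followed across cell classes. They fall into 58 clustered genes, with 14 rows of Pcdha, 22 of Pcdhb and 22 of Pcdhg, and 12 single genes (Pcdh1, Pcdh7, Pcdh8, Pcdh9, Pcdh10, Pcdh11x, Pcdh12, Pcdh15, Pcdh17, Pcdh18, Pcdh19 and Pcdh20). Every one of the 70 had at least 1 UMI. On mm10, with gene IDs looked up in the GENCODE M21 annotation, the Pcdha cluster spans chr18:36930184-37187661, Pcdhb chr18:37264938-37524479 and Pcdhg chr18:37661793-37841873 (without Pcdhgb8, whose ID had no match). Of the single genes discussed most, Pcdh9 lies at chr14:93013410-93890679, Pcdh20 at chr14:88464743-88471396, Pcdh15 at chr10:73099342-74649737, Pcdh18 at chr3:49743296-49757325 and Pcdh1 at chr18:38185914-38212053.

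The clustered genes lie side by side on one chromosome, and each neuron is known to use only some of them through a choice among their promoters, so that neighbouring cells carry different sets. Pcdha and Pcdhg transcripts join a variable first exon to shared constant exons, whereas a Pcdhb gene is a single coding exon. Single protocadherins (δ-protocadherins for the most part) mediate weak homophilic adhesion, and several of them bind the WAVE complex, which steers actin branching at the membrane.

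The libraries came from the preoptic region of the mouse hypothalamus, a centre of parental, mating, sleep and temperature control. There were 3 female and 3 male libraries. Each pooled 3 mice, 60 to 70 days old, which had lived singly for 3 days beforehand. Cells were freed with protease, sorted for viability and run on the 10x Chromium platform. No genotype, strain or treatment other than the shared housing was given, and the pooled animals of a library could not be separated, so the library was the unit of replication.

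Of 31299 barcodes, 30824 had at least 500 genes and at most 20% mitochondrial UMIs. The 6 libraries kept between 410 cells (female replicate 3) and 9749 cells (female replicate 2), with a median of 2684 to 6757 UMIs per cell. Among the 30351 distinct barcode sequences of these cells, 468 occurred in more than 1 library. A cell was given a class when it held at least 3 markers of that class and of no other: 14067 were neurons, of which 10260 were GABA neurons and 1186 glutamate neurons, and 5429 were mature oligodendrocytes, 75 newly formed oligodendrocytes, 814 oligodendrocyte precursors, 562 astrocytes, 556 microglia, 323 endothelial cells and 359 mural cells. Another 8241 cells had the markers of several classes, 5721 of them those of neurons and mature oligodendrocytes, and were not used by class. The labels fitted their markers, with neuron markers summing to 4894 CPM (UMIs in every 1000000 UMIs of a class in a library) in neurons and to 209 to 437 CPM in the glial and vascular classes. Female replicate 3 had fewer than 10 glutamate neurons, mural cells and marker-positive neurons, so 5 libraries at most entered those comparisons. Some neuronal RNA was counted in every class. As a measure of it, 5 neuronal genes that were not used to choose neurons stood at 1.96 to 5.18% of their neuronal level in mature oligodendrocytes, 6.10 to 18.5% in precursors, 4.21 to 8.79% in astrocytes, 2.49 to 6.75% in microglia, 3.82 to 8.97% in endothelial cells and 3.42 to 7.36% in mural cells. How it came to be there was not tested, and a protocadherin level at or below such a range was read as background.

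Single protocadherins carried most of the protocadherin RNA that was counted. Over all kept cells the 70 genes had 271965 UMIs, of which the 12 single genes held 86.2%, Pcdhb 7.49%, Pcdhg 4.64% and Pcdha 1.71%. These shares are of captured molecules and are not comparable as gene activity between families. The last 500 exonic bases were identical in all 14 Pcdha and all 21 annotated Pcdhg genes, and in none of the Pcdhb or single genes. Reads from that common end cannot be given to 1 gene, so single Pcdha and Pcdhg values are uncertain.

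The summed families differed among classes in their order. Pcdhb was highest in oligodendrocyte precursors, at 270 ± 32.4 CPM (SD, n = 6) against 120 ± 11.8 CPM in GABA neurons, with every precursor library above every GABA library. Pcdha was at 24.5 ± 8.3 CPM in GABA neurons (n = 6), 22.9 ± 7.9 CPM in glutamate neurons (n = 5) and 23.8 ± 13.8 CPM in precursors (n = 6), values that overlapped. It was at 1.47 ± 0.99 CPM in mature oligodendrocytes, where the pooled level was 6.33% of that of neurons, just above the background range of that class, and in astrocytes only 2 Pcdha UMIs were counted in all. Pcdhg spread more evenly, with 105 ± 25.2 CPM in precursors, 85.6 ± 42.2 CPM in astrocytes, 59.7 ± 19.8 CPM in endothelial cells and 58.5 ± 9.5 CPM in GABA neurons (n = 6 each).

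**Figure D1:**
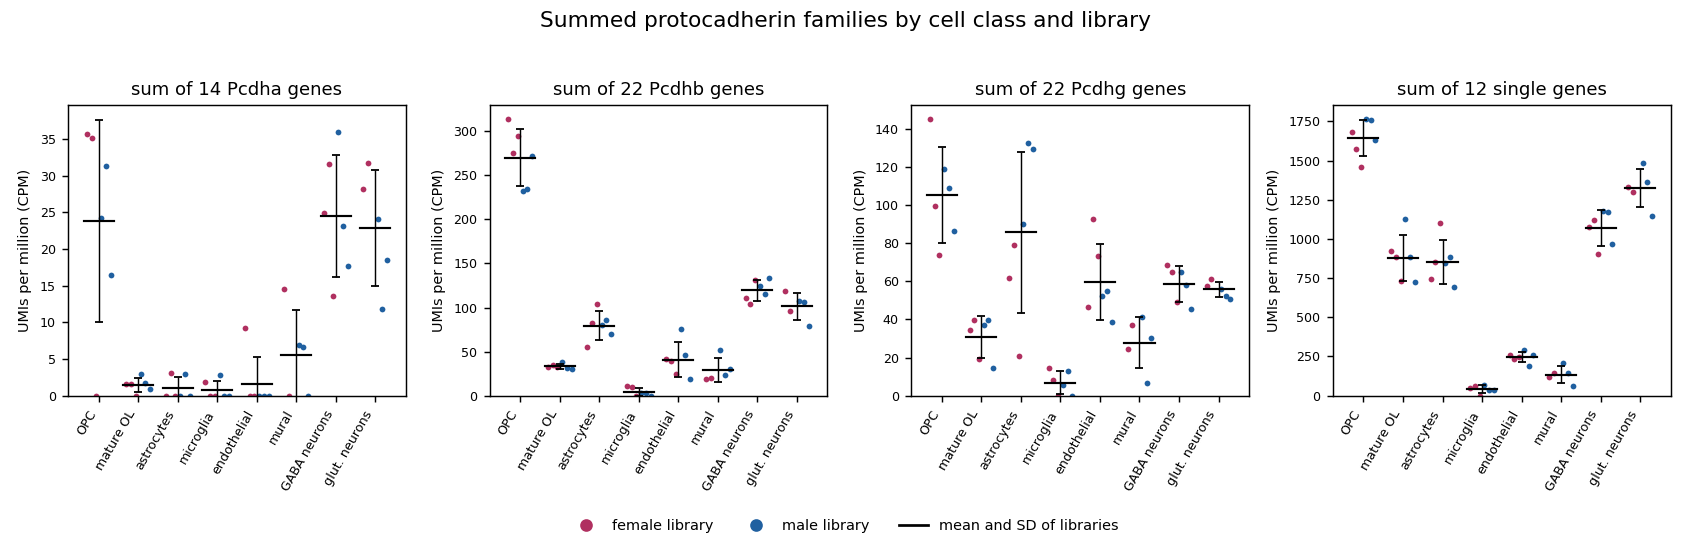
Summed UMI counts (CPM) of the 14 Pcdha, 22 Pcdhb, 22 Pcdhg and 12 single genes in 8 cell classes. Points are libraries (red female, blue male), and bars give the mean and SD of 5 or 6 libraries; OPC are oligodendrocyte precursors and OL oligodendrocytes. Pcdhb and the single genes peak in precursors, and all 4 families have their lowest mean in microglia.

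The clustered share of protocadherin UMIs was smallest in mature oligodendrocytes, at 6.90 ± 0.73%, and stood at 11.96 ± 0.98% in glutamate neurons, 16.0 ± 1.2% in GABA neurons, 16.5 ± 4.3% in astrocytes, 19.6 ± 2.0% in precursors, 29.2 ± 6.4% in endothelial cells and 32.9 ± 10.9% in mural cells (SD over 5 or 6 libraries). The mature oligodendrocyte libraries, at 5.93 to 7.86%, lay below every library of the neuron classes, and the endothelial libraries, at 18.2 to 35.9%, lay above every GABA library. Of the neighbours in this order, mature oligodendrocytes and glutamate neurons did not overlap, nor did glutamate and GABA neurons, while each other neighbouring pair overlapped. In microglia, with 45 clustered UMIs in all, the share ran from 0 to 36.6% over libraries and was not placed in the order. This share was given no test, and its order is not that of the clustered levels. Pooled clustered levels were 402 CPM in precursors, 204.5 CPM in GABA neurons, 107.8 CPM in endothelial cells, 71.3 CPM in mature oligodendrocytes and 63.1 CPM in mural cells. Pooled levels of the single genes were 1690, 1126, 237.6, 914 and 151.7 CPM in the same classes.

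Mature oligodendrocytes, the myelin-forming glia, had more Pcdh9 than any other class and less of most other members than neurons. Pcdh9, the largest contributor among the δ-protocadherins here, ranged over libraries from 556 to 875 CPM (median 688 CPM) in mature oligodendrocytes, against 184 to 215 CPM (median 191 CPM) in neurons. The ranges were far apart, and Pcdh9 made up 77.9% of all single-protocadherin UMIs of these cells (95% Wilson interval 77.4 to 78.4%, counting error only). Its log2 change was 2.53 ± 0.10 (SE), adjusted p = 5.0e-12 by edgeR's quasi-likelihood test with Benjamini-Hochberg adjustment over all genes, called throughout at an adjusted p under 0.05 and at least a 2-fold change. The promoter of Pcdh9 is shown because this is the single protocadherin that rose most in oligodendrocytes; it spans 250 bases before to 50 after the RefSeq start (GRCm38.p6, chr14:93890630-93890929, minus strand), with CG dinucleotides in capitals.

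Pcdh9: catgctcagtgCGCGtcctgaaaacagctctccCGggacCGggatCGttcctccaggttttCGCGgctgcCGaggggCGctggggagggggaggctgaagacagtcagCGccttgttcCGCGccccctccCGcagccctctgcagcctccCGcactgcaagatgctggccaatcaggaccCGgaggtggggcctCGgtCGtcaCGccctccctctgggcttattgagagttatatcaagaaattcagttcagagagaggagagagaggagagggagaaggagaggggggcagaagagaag

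It holds 18 CG dinucleotides, a number that 71.9% of the 32851 RefSeq promoters of this length do not exceed. Sequences are given for single genes only.

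Of the 40 protocadherins that passed the filter on low counts in mature oligodendrocytes and neurons, 2 rose and 24 fell, where 49.8% of all 12492 genes tested passed in either direction; the median log2 change was -1.15 for these members and -0.08 for all genes. Among the single genes Pcdh7 fell by 1.96 ± 0.10 on the log2 scale, with 14.96 to 33.0 CPM (median 24.0 CPM) in mature oligodendrocytes against 104 to 188 CPM (median 156 CPM) in neurons. Pcdh17, known at the presynaptic terminals of corticobasal ganglia circuits, fell by 1.33, Pcdh10, which is needed for the growth of striatal axons, by 1.15, Pcdh15, a component of the tip link of inner-ear hair cells, by 1.30, and Pcdh1 by 1.52. Pcdh8, Pcdh18, Pcdh19 and Pcdh20 fell by 3.38 to 3.63, to 4.69 to 5.96% of their neuronal levels, at or near the background range. Pcdh11x, an X-linked gene, had 46.4 ± 14.2 CPM in mature oligodendrocytes against 100 ± 5.3 CPM in neurons and did not reach the 2-fold limit (log2 change -0.43). These changes are relative to TMM scaling, which set the median of all genes 0.73 higher on the log2 scale than library size alone; by library size Pcdh9 rose by 1.81, Pcdhga11 by 1.17, Pcdh11x fell by 1.16, and 2 members rose and 30 fell.

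In the clustered families 10 of 16 Pcdhb genes tested fell in mature oligodendrocytes, from Pcdhb17 at a log2 change of -1.14 to Pcdhb3, with 2 UMIs in mature oligodendrocytes and 332 in neurons. The others were Pcdhb7, Pcdhb8, Pcdhb9, Pcdhb11, Pcdhb12, Pcdhb16, Pcdhb19 and Pcdhb21. Both Pcdha genes tested fell, Pcdha12 and the row ENSMUSG00000102206 named Pcdha11. So did Pcdhga2, Pcdhga12 and the row ENSMUSG00000023036, described further on. The 14 Pcdha genes had 51 UMIs in all in mature oligodendrocytes, 7 of them from the row named Pcdha11. Members as low as this row and Pcdhb3 could pass the filter on low counts only through their neuron counts. Falls of such members were fixed by the filter and add nothing to the levels. The second gene to rise was Pcdhga11, at 4.13 ± 2.4 CPM in mature oligodendrocytes against 2.26 ± 0.42 CPM in neurons (n = 6 each; log2 change 1.90 ± 0.21), although the library values overlapped and the gene shares its constant exons with the other Pcdhg genes. The count of 26 changed genes fell to 17 without female replicate 2 and to 16 without male replicate 2, where 28 and 27 members were tested instead of 40. Pcdhb9 (-0.90 without male replicate 2) and Pcdhga2 (-0.96 without female replicate 1 and -0.99 without male replicate 3) then missed the 2-fold limit. So did Pcdhb9, Pcdhb17 and Pcdhga12 when a class needed at least 4 markers (-0.95, -0.96 and -0.99) and Pcdhga2 without the library block (-0.97).

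Oligodendrocyte precursors, the proliferating cells that give rise to oligodendrocytes, carried more protocadherin RNA than any other class, with 1645 ± 117 CPM of the single genes (n = 6). Pcdh15 stood at 257 to 311 CPM (median 303 CPM) in precursors, against 29.5 to 45.8 CPM (median 38.7 CPM) in neurons, and rose by 3.00 ± 0.08 on the log2 scale. Pcdh20 stood at 49.0 to 87.4 CPM (median 72.4 CPM) in precursors, against 19.9 to 28.2 CPM (median 25.4 CPM) in neurons, a log2 change of 1.56 ± 0.14. Neither gene's ranges overlapped, and the precursor levels lay far above the background range of that class. Pcdh11x likewise rose by 1.54 ± 0.08, with 242 to 319 CPM (median 290 CPM) in precursors against 93.3 to 107 CPM (median 99.8 CPM) in neurons.

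The promoters of Pcdh15 and Pcdh20 are shown because both genes rose in precursors in the 6 libraries, against neurons and against mature oligodendrocytes. They are RefSeq windows on GRCm38.p6, chr10:73821617-73821916 (plus strand) for Pcdh15 and chr14:88471347-88471646 (minus strand) for Pcdh20, with CG dinucleotides in capitals. Unlike that of Pcdh20, the Pcdh15 window lies far inside the GENCODE M21 span of the gene given above, not at its annotated start.

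Pcdh15: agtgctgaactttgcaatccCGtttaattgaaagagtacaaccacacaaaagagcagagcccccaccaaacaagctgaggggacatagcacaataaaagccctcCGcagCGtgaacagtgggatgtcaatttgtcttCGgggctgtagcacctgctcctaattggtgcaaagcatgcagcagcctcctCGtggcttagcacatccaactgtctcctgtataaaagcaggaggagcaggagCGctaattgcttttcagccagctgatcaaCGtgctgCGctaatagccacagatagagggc
Pcdh20: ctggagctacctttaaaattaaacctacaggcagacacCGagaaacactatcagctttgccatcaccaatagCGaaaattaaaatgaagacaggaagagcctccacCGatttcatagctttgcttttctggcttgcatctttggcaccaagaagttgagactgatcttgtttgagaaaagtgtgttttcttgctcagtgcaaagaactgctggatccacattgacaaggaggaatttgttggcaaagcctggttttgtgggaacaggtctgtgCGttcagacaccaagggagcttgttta

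Pcdh15 holds 8 and Pcdh20 holds 4 CG dinucleotides, against a median of 7 over all promoters of the table (10th to 90th percentile 1 to 31). Across the 9 single protocadherins with a promoter in the table, these were the lowest numbers, the others holding 11 (Pcdh7) to 26 (Pcdh17). For Pcdh15 the number is that of the window inside the gene and not of its annotated start.

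Among 14 members tested between precursors and neurons 6 rose and 1 fell (32.1% of 8878 genes passed in either direction; median log2 change 0.81 for the members and 0.00 for all genes). The other genes that rose were Pcdh9, at 332 to 429 CPM (median 398 CPM) in precursors, and the clustered genes Pcdhb9 and Pcdhb20. Pcdh9 lay on the 2-fold limit, with a log2 change of 1.02 ± 0.08, and missed it in 10 of the alternatives. It was 0.95 without female replicate 3, 0.996 without male replicate 1 and 0.95 without male replicate 3. It was 0.85 with no filter on low counts, 0.91 and 0.93 when a class needed at least 2 or 4 markers, 0.94 with DESeq2 or with library size alone, 0.98 without Scrublet's doublets and 0.995 with at least 1000 genes per cell. Pcdh19, the gene of a human epilepsy that affects mainly girls, fell, with 21.6 ± 6.1 CPM in precursors against 73.4 ± 8.6 CPM in neurons (log2 change -1.65 ± 0.15). Without female replicate 3, whose 36 precursors are the fewest, 28 members were tested and 11 passed, Pcdhb5, Pcdhb10, Pcdhga5 and Pcdhga11 being added above and Pcdh18 below neurons.

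Pcdhb9 stood out within its family. It had 105 ± 38.5 CPM in precursors against 12.6 ± 2.4 CPM in neurons (n = 6 each), with 65.9 to 159 CPM (median 95.8 CPM) against 9.61 to 15.9 CPM (median 11.96 CPM). Every precursor library was above every neuron library, and the log2 change was 3.14 ± 0.15. Of all Pcdhb UMIs in precursors 36.7% came from this 1 gene (290 of 791; Wilson interval 33.4 to 40.1%), while it supplied 10.6% in GABA neurons, 6.67% in glutamate neurons and 9.05% in mature oligodendrocytes. Pcdhb20 followed, with 31.6 ± 9.0 CPM in precursors against 11.7 ± 2.6 CPM in neurons (log2 change 1.70 ± 0.20). The remaining 20 Pcdhb genes were each below 25 CPM on average in precursors, and Pcdhb1 had no UMI there.

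**Figure D2:**
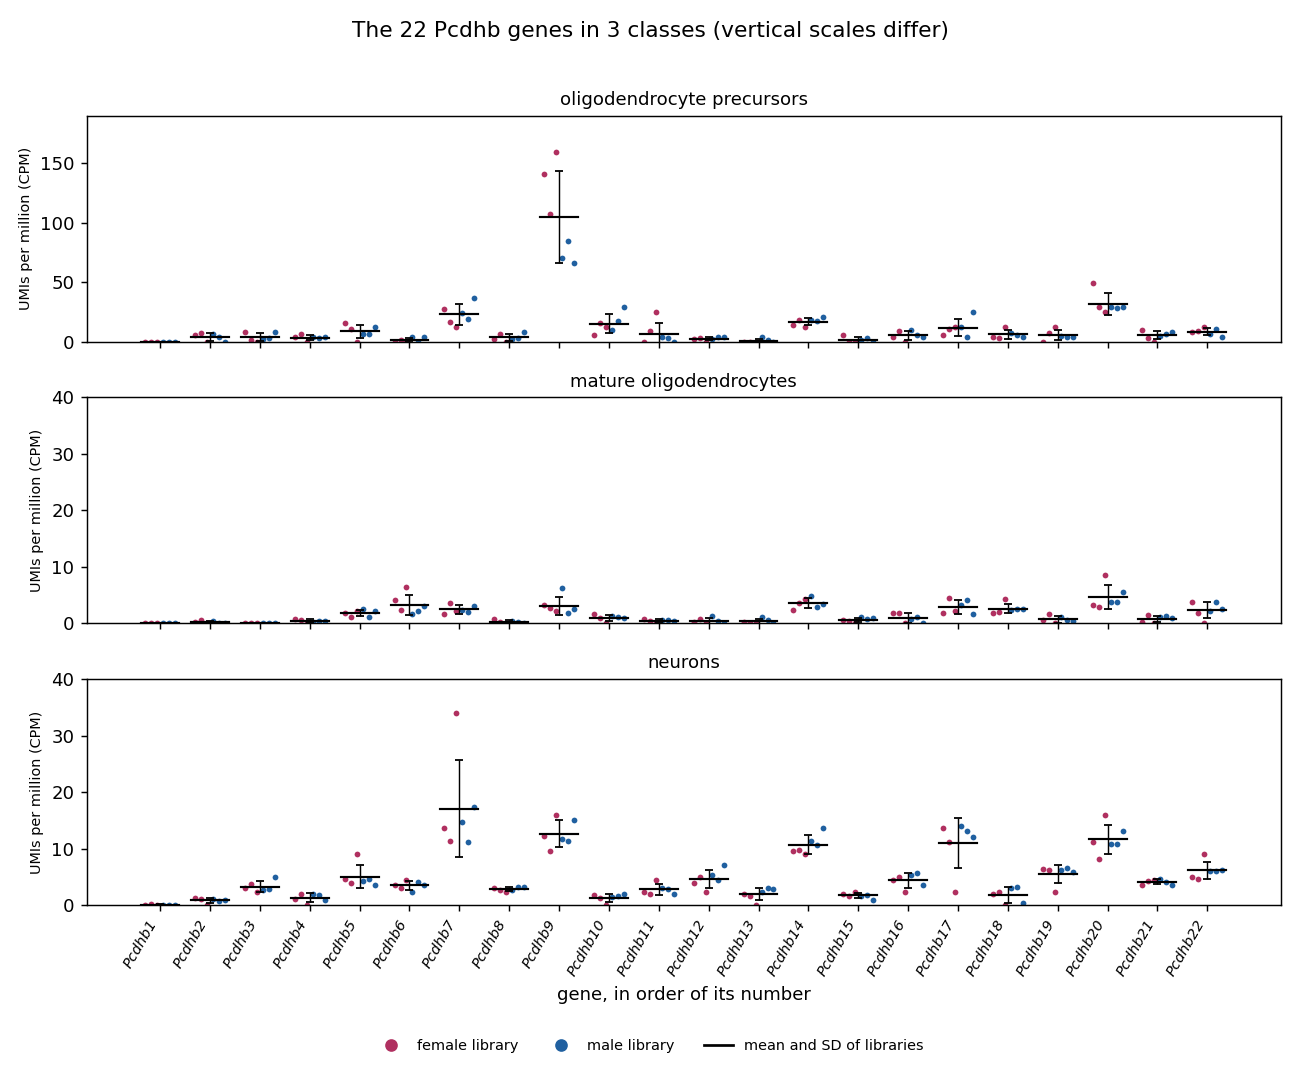
UMI counts (CPM) of the 22 Pcdhb genes in oligodendrocyte precursors, mature oligodendrocytes and neurons, with vertical scales that differ. Points are libraries (red female, blue male), and bars give the mean and SD of 6 libraries. Pcdhb9 stands at 65.9 to 159 CPM in precursors and below 20 CPM in both other classes.

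Set directly against mature oligodendrocytes, precursors had more of 9 of the 10 members tested and less of Pcdh9 (33.1% of 7653 genes passed). Pcdh20 rose most, by 4.97 ± 0.29 on the log2 scale, followed by Pcdh15 (4.36 ± 0.10), Pcdhb9 (4.32 ± 0.24), Pcdh8 (3.12) and Pcdhb20 (2.47). Pcdh11x, Pcdh7, Pcdh10 and Pcdh17 rose by 1.21 to 2.02, Pcdh17 missing the limit when a class needed at least 4 markers (0.97). Pcdh9 fell by 1.47 ± 0.08 on the log2 scale in precursors, and missed the 2-fold limit when scaled by library size alone (-0.85). This comparison shares its precursor libraries with the one against neurons.

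The 75 newly formed oligodendrocytes, of which 3 libraries had at least 10, are described without a test. Pcdh7 had 297 CPM in female replicate 2, 327 CPM in male replicate 1 and 474 CPM in male replicate 2. Each of these values was above the highest precursor (166 CPM) and mature oligodendrocyte (33.0 CPM) library. At least 1 Pcdh7 UMI was found in 72.0% of the cells, against 50.9% of neurons, 35.9% of precursors, 10.3% of mature oligodendrocytes and 2.34% of microglia. The median depths were 4125, 6331, 3776.5, 4607 and 4790.5 UMIs per cell in that order. Pcdh9, at 187, 249 and 176 CPM in the same libraries, was below every precursor and mature oligodendrocyte library. Pcdhb9 had 29 of their 72 Pcdhb UMIs, or 40.3% (Wilson interval 29.7 to 51.8%).

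**Figure D3:**
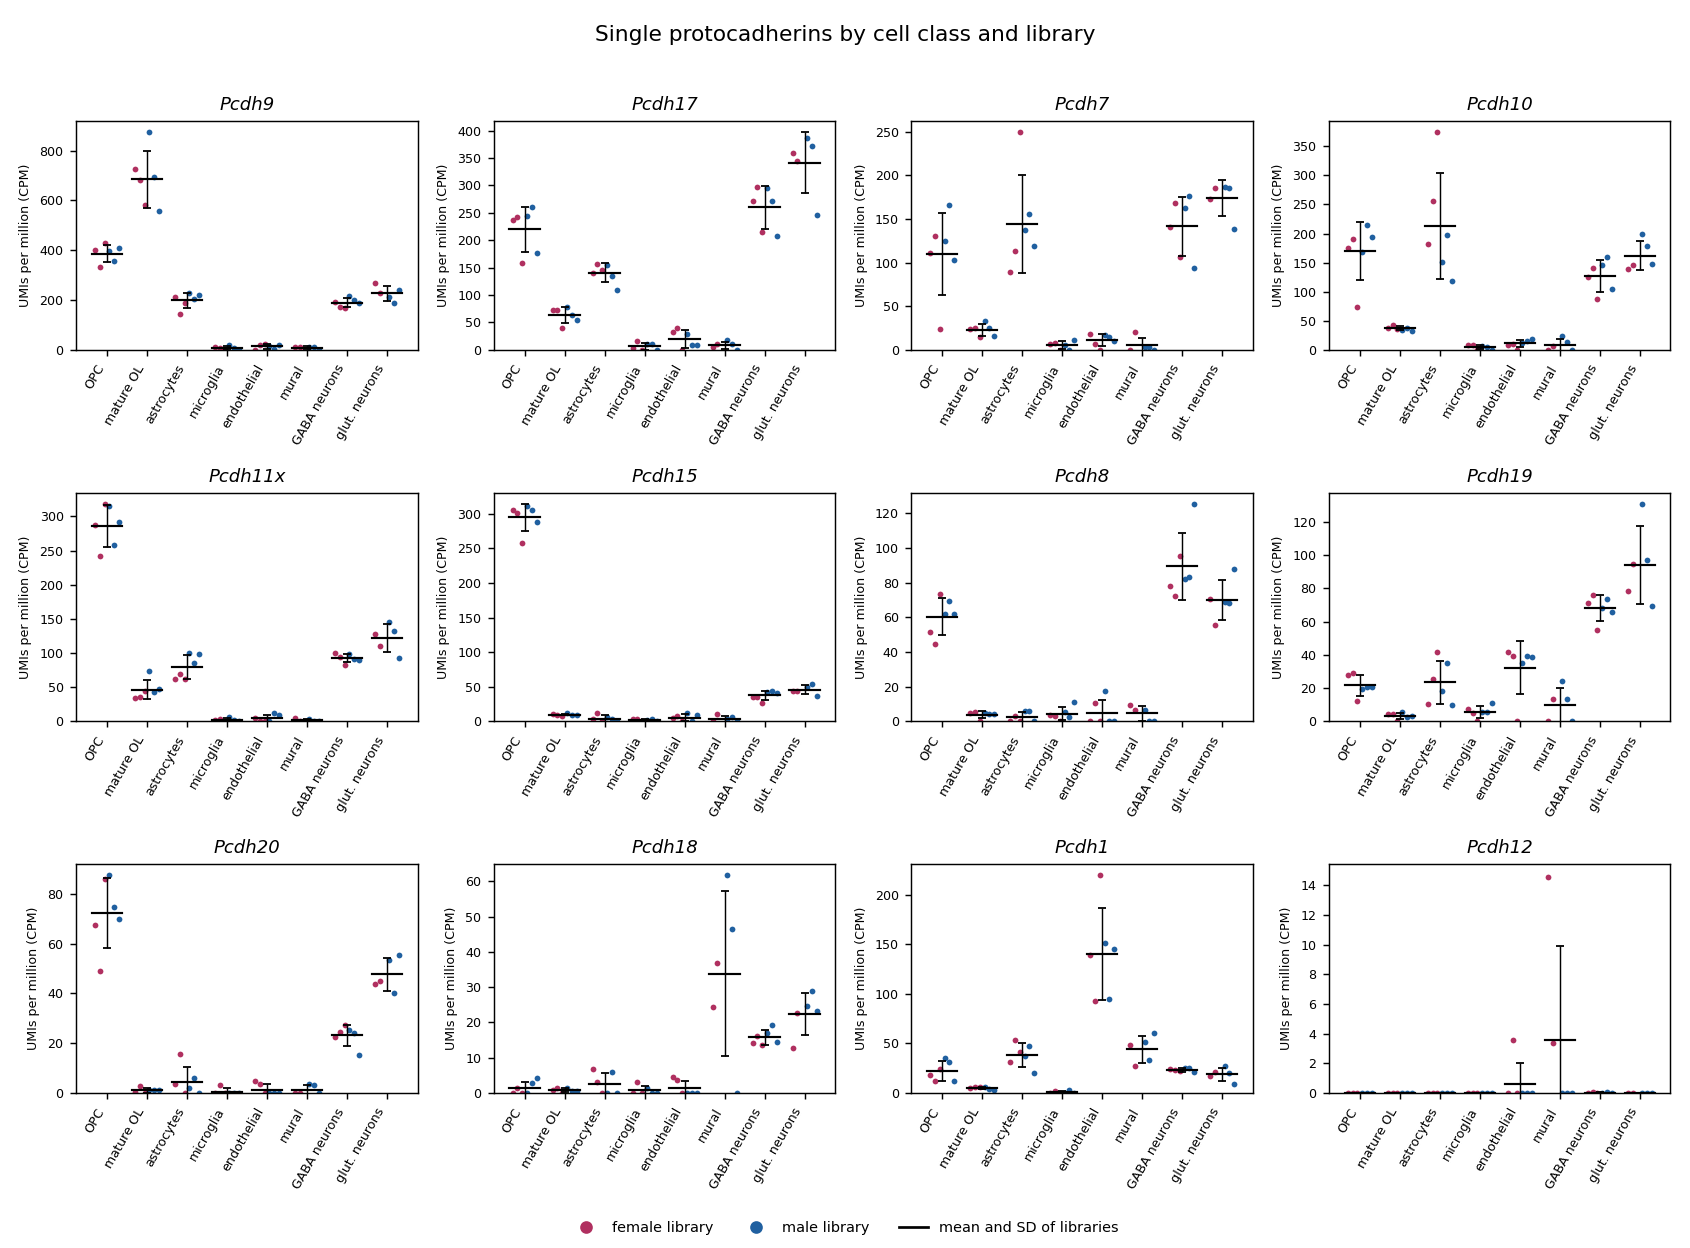
UMI counts (CPM) of the 12 single protocadherins in 8 cell classes. Points are libraries (red female, blue male), and bars give the mean and SD of 5 or 6 libraries; OPC are oligodendrocyte precursors and OL oligodendrocytes. Pcdh9 peaks in mature oligodendrocytes, Pcdh15, Pcdh11x and Pcdh20 in precursors, Pcdh1 in endothelial cells and Pcdh18 in mural cells.

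Astrocytes held Pcdh1, Pcdh7, Pcdh9, Pcdh10 and Pcdh11x at 78.3 to 168% of their pooled neuronal levels and Pcdh8 at 5.02%, within the background range. Of 9 members tested, all single, 3 fell, against 25.4% of all 7089 genes that fell: Pcdh8, known as an activity-induced synaptic protocadherin, with a log2 change of -4.15 ± 0.36, Pcdh15 with -2.60 ± 0.37 and Pcdh19 with -1.56 ± 0.23. Pcdh10 ranged from 119 to 375 CPM (median 190 CPM) in astrocytes, against 105 to 162 CPM (median 133 CPM) in neurons, and its log2 change of 0.71 ± 0.13 passed the p threshold but not the 2-fold limit. Pcdh1, at a log2 change of 0.99 ± 0.23, lay just under that limit. Pcdh8 (6 UMIs in astrocytes) and Pcdh15 (9 UMIs) could pass the filter on low counts only through their neuron counts. Their falls were fixed by the filter and add nothing to the levels. More members passed when a small library was set aside: 8 of 20 without female replicate 3, which had 37 astrocytes, among them Pcdh1 and Pcdhga12 above neurons, and 5 of 10 without male replicate 3.

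Microglia, the brain's resident phagocytes, had little of any protocadherin. The single genes summed to 41.2 ± 23.9 CPM in microglia against 1069 ± 113 CPM in GABA neurons (n = 6 each). All 10 members tested, Pcdh1, Pcdh7, Pcdh8, Pcdh9, Pcdh10, Pcdh11x, Pcdh15, Pcdh17, Pcdh19 and Pcdh20, fell (55.8% of 8244 genes fell; median log2 change -4.40 for the members and -1.25 for all genes). The pooled levels of these genes were 2.88 to 7.54% of the neuronal ones, and all but Pcdh19 lay within the background range. Without female replicate 3, which had 11 microglia, all of 20 members tested fell. Microglia held 141 single and 45 clustered protocadherin UMIs in all. Members such as Pcdh20 (2 UMIs) and Pcdh1 (3 UMIs) could pass the filter on low counts only through their neuron counts. A fall of such members was fixed by the filter, and these counts of falls add nothing to the levels.

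In the vessel wall the picture turned on Pcdh1 and Pcdh18. Pcdh1, which also lines airway epithelium, stood at 92.8 to 220 CPM (median 142 CPM) in endothelial cells, against 18.1 to 25.0 CPM (median 23.8 CPM) in neurons. No endothelial library came near the neuronal range, the log2 change was 2.41 ± 0.19, and Pcdh1 made up 50.6% of the single-protocadherin UMIs of these cells (Wilson interval 44.6 to 56.5%). The other 8 of 9 members tested fell (52.5% of 6507 genes passed), namely Pcdh7, Pcdh8, Pcdh9, Pcdh10, Pcdh11x, Pcdh15, Pcdh17 and Pcdh19, all but Pcdh15 and Pcdh19 to within the background range. Members such as Pcdh8, Pcdh11x and Pcdh15, with 6 UMIs each in endothelial cells, could pass the filter on low counts only through their neuron counts. A fall of such members was fixed by the filter and adds nothing to the levels. Pcdh19 was at 41.7, 39.2, 0, 35.0, 39.5 and 38.8 CPM in the 6 endothelial libraries. The 0 came from the 27 cells of female replicate 3. Its log2 change of -1.01 lay on the 2-fold limit and missed it in 8 of the alternatives. It was -0.99 without female replicate 2 and -0.61 without female replicate 3. It was -0.28 when a class needed at least 4 markers, with an adjusted p of 0.213 by edgeR, -0.60 with at least 1000 genes per cell, -0.84 with no filter, -0.87 with at least 2 markers, -0.90 with DESeq2 and -0.97 without the library block. Red blood cell genes summed to 34770 CPM in the endothelial class and to 14.6 to 136 CPM in the neuron, glial and mural classes; their part in these levels was not tested.

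Pcdh18, a gene best known for binding the adaptor Dab1, was the only member that rose in mural cells (pericytes and smooth muscle) among 19 tested, of which 15 fell (49.1% of 10952 genes passed). Several of these falls were fixed by the filter on low counts, as described below. Pcdh18 had 24.3, 36.9, 61.8, 46.4 and 0 CPM in mural cells of female replicates 1 and 2 and male replicates 1, 2 and 3. In neurons of the same libraries it had 13.7, 16.4, 18.2, 20.2 and 13.7 CPM. The value was higher in mural cells in 4 of 5 libraries, the exception being male replicate 3 with 31 mural cells, and the log2 change was 1.41 ± 0.29. Ependymal markers summed to 333 CPM in the mural class and to 7.6 CPM in neurons. Of these 5 markers, the most frequent was found in 63.8% of mural cells and the median one in 0.0%. The part of these markers in the Pcdh18 level was not tested. The promoter of Pcdh18 (RefSeq, GRCm38.p6, chr3:49757267-49757566, minus strand) is shown because the gene rose in mural cells and, below, in 2 kinds of GABA neuron; CG dinucleotides are in capitals and number 23.

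Pcdh18: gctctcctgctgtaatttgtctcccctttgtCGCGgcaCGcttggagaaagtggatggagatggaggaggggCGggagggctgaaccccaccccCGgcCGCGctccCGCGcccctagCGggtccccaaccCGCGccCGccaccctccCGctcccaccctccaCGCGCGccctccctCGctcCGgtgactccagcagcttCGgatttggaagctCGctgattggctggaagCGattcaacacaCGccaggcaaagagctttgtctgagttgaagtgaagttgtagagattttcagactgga

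Pcdh1 reached 44.1 ± 13.7 CPM in mural cells (n = 5), short of the 2-fold limit against neurons (log2 change 0.94 ± 0.27) and past it without female replicate 2 (1.08), male replicate 2 (1.01) or male replicate 3 (1.03). It was the only member tested between mural and endothelial cells and was lower in mural cells by a log2 change of -1.48 ± 0.23 (17.3% of 3935 genes fell). Besides Pcdh7, Pcdh8, Pcdh9, Pcdh10, Pcdh11x, Pcdh15, Pcdh17, Pcdh19 and Pcdh20, of the clustered genes Pcdhb7, Pcdhb9, Pcdhb14, Pcdhb20, Pcdhga12 and the row ENSMUSG00000023036, named Pcdhga8 in the table and Pcdhgc4 in the GENCODE M21 annotation, fell in mural cells, each on 2 to 5 UMIs in the mural class. With so few UMIs these clustered members could pass the filter on low counts only through their neuron counts. The same holds for Pcdh11x and Pcdh20, with 2 UMIs each in mural cells. A fall of such members was fixed by the filter and adds nothing to the levels. The calls of Pcdhb7 and Pcdhb14 were lost without any 1 of female replicates 1 and 2 and male replicates 2 and 3 (log2 changes of -1.06 to -1.47). Those of Pcdhga12 and ENSMUSG00000023036 were lost without female replicate 1 or male replicate 2 (-1.39 to -1.54), and that of Pcdhga12 also without male replicate 3 (-1.61). DESeq2 made none of these 4 calls (adjusted p of 0.0568 to 0.118). That of Pcdhb7 was also lost with no filter or at least 2 markers, that of Pcdhb14 with no filter and that of ENSMUSG00000023036 with at least 4 markers. Pcdh12, which is known from endothelial junctions, had 12 UMIs in all cells together, 4 in mural cells, 3 in GABA neurons and 1 in endothelial cells, and was not detectable beyond that at this depth.

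GABA and glutamate neurons differed little. Of 31 members tested in 5 libraries none passed both limits, where 3.85% of 11785 genes did. An unadjusted p under 0.05 was found for 14 of the 31 members and 3899 of the 11785 genes. Pcdh20 came nearest, with 23.1 ± 4.2 CPM in GABA neurons (n = 6) and 47.6 ± 6.6 CPM in glutamate neurons (n = 5), a log2 change of -0.92 ± 0.10 at an adjusted p of 9.5e-09 by edgeR. Its glutamate values of 43.8, 45.1, 53.5, 40.1 and 55.5 CPM all lay above the highest GABA library at 27.3 CPM. Pcdh17, Pcdh11x, Pcdh19, Pcdh18, Pcdh15, Pcdh9, Pcdh10 and Pcdh7 were below an adjusted p of 0.05 in the same direction with smaller changes (-0.41 to -0.16). Pcdh8, at 0.32, and Pcdhb9, at 0.78, pointed toward GABA neurons. Pcdhgc5, one of the C-type Pcdhg genes that neurons use without promoter choice, passed both limits toward GABA neurons without male replicate 2 (1.57) or without male replicate 3 (1.73).

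Within the GABA neurons, cells with a marker gene (at least 2 UMIs, or 3 for Avp and Sst) were set against cells with none of its UMIs, in the same libraries. Marker-positive cells held more UMIs per cell, for example a median of 9198 against 6001 for Gal; the part of this in the results was not tested. The striatal-type markers Adora2a (405 cells) and Drd1 (348 cells), receptors for adenosine and dopamine, went with low Pcdh20. It had 5.23, 3.41, 1.53, 9.74 and 13.1 CPM in Adora2a-positive cells of female replicates 1 and 2 and male replicates 1, 2 and 3, against 23.3, 25.4, 26.9, 24.9 and 15.6 CPM in Adora2a-negative cells. In Drd1-positive cells it had 0, 6.03, 3.76, 6.50 and 0 CPM in the same libraries, against 23.9, 26.2, 28.0, 26.3 and 17.6 CPM in Drd1-negative cells. Each library pointed the same way, and the log2 changes were -2.19 ± 0.29 and -2.55 ± 0.33.

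In Adora2a-positive cells 5 of 19 members tested fell (9.28% of 10224 genes fell). Pcdh9 had 107, 86.3, 104, 54.8 and 26.2 CPM there, against 200, 176, 222, 210 and 193 CPM in Adora2a-negative cells, a log2 change of -1.21 ± 0.10 with no overlap. Pcdh18, Pcdh15 and ENSMUSG00000023036 fell by 1.17, 1.03 and 1.64. The Pcdh15 change was -0.83 without female replicate 2 and -0.91 without male replicate 3, short of the limit, and -0.93 with at least 4 markers and -0.9996 without Scrublet's doublets. With at least 2 markers per class the calls of Pcdh18 (-0.74) and ENSMUSG00000023036 (-0.94) were lost. The clustered share was 27.1 ± 2.4% in Adora2a-positive and 15.1 ± 0.93% in Adora2a-negative neurons (SD over the same 5 libraries). A higher share without overlap was also found in Drd1-positive (mean 24.07 against 14.97%), Avp-positive (24.92 against 15.51%) and Vip-positive cells (18.95 against 15.31%). For Th and Nts the positive mean was higher but the libraries overlapped. For Gal, Sst, Lhx6 and Moxd1 the positive mean was lower. These shares were given no test. Pcdhb9 (0.93) and Pcdhb7 (0.86) had log2 changes above 0 in Adora2a-positive cells, past the p threshold alone. Without male replicate 3, which had 12 Adora2a-positive cells, 9 of 49 members tested passed, Pcdha5, Pcdhb9, Pcdhga3, Pcdhga11 and Pcdhgc5 being added above Adora2a-negative cells, and without female replicate 1 the count was 8, with Pcdh11x (-1.02) and Pcdh19 (-1.08) added below and Pcdhb12 (1.10) above Adora2a-negative cells.

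In Drd1-positive cells 2 of 20 members fell (5.12% of 10202 genes fell), Pcdh20 and Pcdh19. Pcdh19 had 33.8, 41.2, 22.6, 27.6 and 10.9 CPM in Drd1-positive cells, against 74.5, 78.8, 72.2, 78.2 and 66.8 CPM in Drd1-negative cells (log2 change -1.23 ± 0.14; -0.96, short of the limit, with at least 4 markers per class). Pcdh10 went the other way in each library, with 192, 195, 209, 221 and 284 CPM against 122, 137, 141, 155 and 95.4 CPM, but its log2 change of 0.63 ± 0.09 was under 2-fold. The count was 5 without male replicate 2 and 5 without male replicate 3, Pcdhgc5 being above Drd1-negative cells in both (1.44 and 1.37).

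Avp-positive neurons, 554 cells with at least 3 UMIs of the vasopressin gene, had less of 7 of 27 members (8.87% of 11153 genes fell). Pcdh7 had 48.5, 73.4, 6.77, 16.8 and 8.71 CPM in Avp-positive cells, against 148, 186, 166, 182 and 95.2 CPM in Avp-negative cells, a log2 change of -1.90 ± 0.26. Pcdh9 had 45.0, 91.3, 29.3, 28.0 and 0 CPM, against 204, 182, 225, 205 and 192 CPM (-1.86 ± 0.25). In both genes the groups did not overlap, and the female values were the higher ones among Avp-positive cells. Avp UMIs were spread unevenly over libraries. In female replicate 2, 1561 of 3262 GABA neurons had none and 299 were Avp-positive, against 1963 of 2162 and 51 in male replicate 2. The limit of 3 UMIs was set over all libraries together. How far stray Avp RNA enters the difference between female and male values was not tested. Pcdh17 and Pcdh18 fell by 1.38 and 1.58. Pcdh15 fell by 1.28 and Pcdh8 by 1.16, calls that were lost with at least 4 markers per class (-0.96 and -0.97), and for Pcdh8 also without male replicate 2 (-0.95). Pcdhb5, with 7 UMIs in Avp-positive cells, fell by 1.84, a call lost without female replicate 1 (-1.56) or male replicate 1 (-1.68). With so few UMIs Pcdhb5 passed the filter on low counts through Avp-negative cells, so its fall adds nothing to its level. Pcdh11x, in contrast, had a log2 change of 0.45, past the p threshold.

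In the other marker splits of GABA neurons at most 3 members passed. Vip-positive cells (145) had Pcdh11x at 46.5, 24.1, 60.8 and 22.3 CPM in female replicates 1 and 2 and male replicates 1 and 2, against 99.8, 96.4, 100.1 and 92.3 CPM in Vip-negative cells. It was the only 1 of 49 members to pass (3.26% of 12699 genes fell; log2 change -1.33 ± 0.22), joined without female replicate 1 by Pcdh20 (1.06) and without female replicate 2 by Pcdh7 (-1.11). Pcdh19 had higher values in the same cells, at 132, 111, 136 and 81.6 CPM against 69.7, 73.8, 68.4 and 73.0 CPM, a log2 change of 0.80 that was under 2-fold. The 4 libraries agreed in both directions.

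Pcdh18 was the gene that rose in 2 of the marker splits. In 621 Sst-positive cells, which make somatostatin, it had 31.4, 38.6, 44.2 and 42.3 CPM, against 13.2, 13.5, 15.3 and 17.1 CPM in Sst-negative cells (log2 change 1.43 ± 0.13). In 150 Moxd1-positive cells it had 62.6, 68.9, 90.1 and 42.7 CPM, against 13.2, 14.6, 15.7 and 18.1 CPM in Moxd1-negative cells (2.05 ± 0.21). No positive library overlapped a negative one. It was the only member of 49 to pass for Moxd1 (1.36% of 12755 genes rose), joined without male replicate 2 by Pcdh11x (1.03). For Sst 3 of 50 passed (2.3% of 12845 genes): Pcdhga7 and Pcdhga10 fell on 14 and 6 UMIs, and without male replicate 2 only Pcdh18 was left, the call of Pcdhga10 being lost without any 1 of the 4 libraries (-1.44 to -1.94). DESeq2 and the fit without the library block made neither of these 2 calls. That of Pcdhga7 was also lost with at least 2 or 4 markers per class. With 6 UMIs in Sst-positive cells, Pcdhga10 passed the filter on low counts through Sst-negative cells, so its fall adds nothing to its level. Lhx6-positive cells (377) showed Pcdhb13, Pcdhgb4 and Pcdhga10 lower on 2, 2 and 3 UMIs (3 of 51 members, where 4.04% of 12860 genes fell). With so few UMIs these members could pass the filter only through Lhx6-negative cells, so their falls were fixed by the filter. None of these 3 calls was made without female replicate 1 or without female replicate 2, Pcdhb13 alone was called without male replicate 2, and Pcdhb13 was lost without male replicate 1. DESeq2 called none of them, giving no adjusted p for Pcdhb13. Pcdh11x had a log2 change of 0.89 in the other direction and passed both limits without female replicate 1 (1.01).

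Pcdh8 was low in 967 Gal-positive cells, which make galanin, at 45.7, 39.7, 42.3, 42.6 and 37.3 CPM, against 83.6, 80.4, 90.8, 88.5 and 141 CPM in Gal-negative cells. The groups did not overlap, and the log2 change of -1.01 ± 0.08 lay on the limit, missing it without male replicate 3 (-0.97), without Scrublet's doublets (-0.999) or with at least 4 markers per class (-0.92). Pcdhb19 fell too, by 1.12 (2 of 31 members; 2.58% of 11578 genes fell), and by less than the limit with at least 4 markers (-0.71). Pcdh17 was higher in Gal-positive cells of each library, at 398, 365, 373, 385 and 289 CPM against 255, 285, 280, 260 and 203 CPM, a log2 change of 0.53 that was under 2-fold. Th-positive cells (223; 2 of 20 members, where 1.85% of 10459 genes fell) had less Pcdh8 (-1.07) and Pcdh19 (-1.02), each missing the limit without either of 2 libraries: -0.96 without female replicate 1 and -0.85 without female replicate 2 for Pcdh8, and -0.96 without male replicate 1 or 2 for Pcdh19, which left 1 call each time. Pcdh19 also missed it without the library block (-0.98). Nts-positive cells (1347) had no member past both limits among 33 (1.39% of 11853 genes). An unadjusted p under 0.05 was found for 11 of these members and 3254 of these genes.

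**Figure D4:**
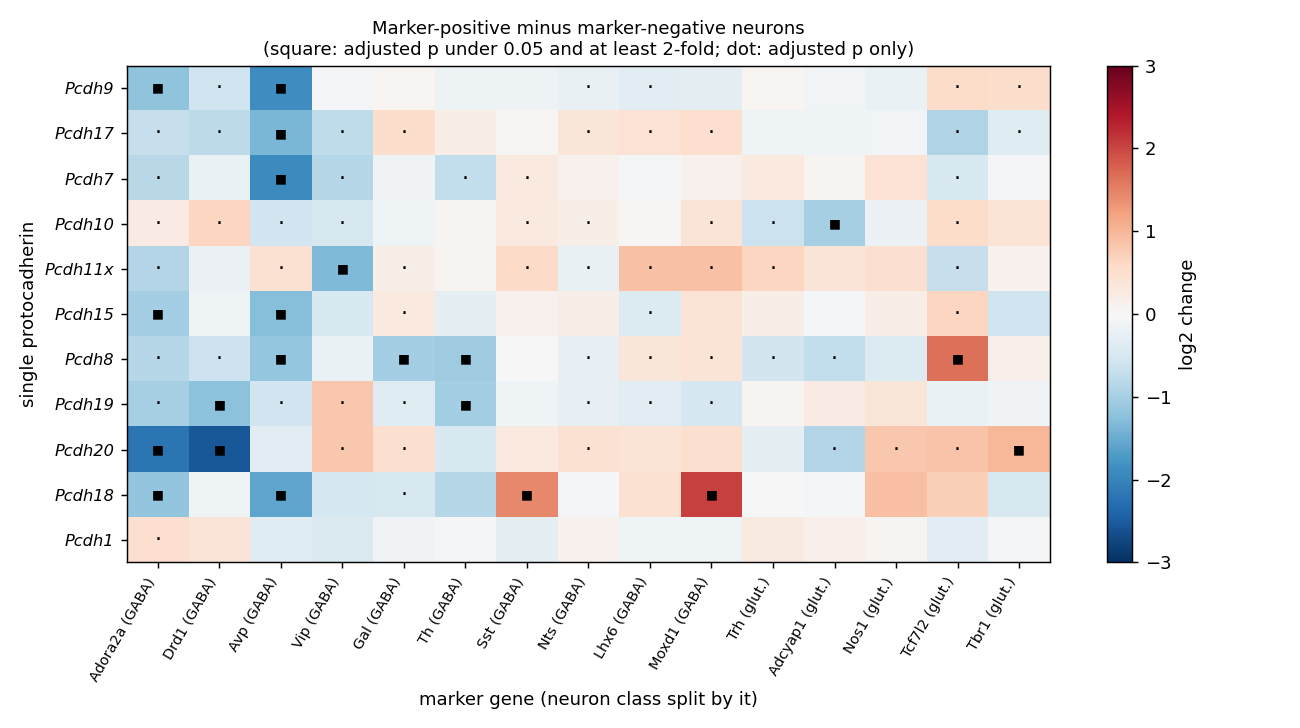
Log2 change of 11 single protocadherins (rows) between marker-positive and marker-negative neurons for 15 marker genes (columns), from edgeR fits over 4 or 5 libraries. Red is higher and blue lower in marker-positive cells; squares mark an adjusted p under 0.05 with at least 2-fold, and dots the adjusted p alone. The darkest blue cells are Pcdh20 with Drd1 and Adora2a, and the darkest red cell is Pcdh18 with Moxd1.

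Among glutamate neurons the splits rest on 4 libraries and 141 to 227 positive cells (at least 2 UMIs, or 3 for Tcf7l2). Tcf7l2-positive cells, a transcription factor of thalamic-type neurons, had Pcdh8 at 186, 128, 192 and 166 CPM, against 51.2, 46.5, 54.4 and 51.1 CPM in Tcf7l2-negative cells. Every positive library was above every negative one, and Pcdh8 was the 1 of 14 members to pass (1.49% of 8912 genes rose; log2 change 1.66 ± 0.16), joined by Pcdh17 (-1.01) without male replicate 1. Tbr1-positive cells had Pcdh20 at 80.1, 76.1, 69.3 and 58.9 CPM, against 30.6, 36.0, 49.0 and 33.3 CPM in Tbr1-negative cells, without overlap. That change of 1.01 ± 0.20 (1 of 14 members; 0.874% of 8929 genes rose) missed the limit without female replicate 1 (0.89) or 2 (0.94), with no filter (0.95), and with library size alone, DESeq2 or no library block (0.99 each). Adcyap1-positive cells had Pcdh10 at 59.0, 102, 111 and 83.6 CPM, against 164, 173, 210 and 210 CPM in Adcyap1-negative cells, again without overlap. Its change of -1.00 ± 0.14 (1 of 16 members; 0.612% of 9481 genes fell) missed the limit without female replicate 1 (-0.92) or male replicate 2 (-0.93), with at least 2 or 4 markers per class (-0.98 and -0.86) or without Scrublet's doublets (-0.999), and without female replicate 2 Pcdh20 passed as well. No member passed for Trh (16 tested, 1.73% of 9638 genes) or Nos1 (14 tested, 0.45% of 8882 genes). An unadjusted p under 0.05 was found for 4 members and 1342 genes with Trh. With Nos1 it was found for 6 members and 839 genes.

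The clustered genes were read as families of many low members. In GABA neurons the highest Pcdhb genes were Pcdhb7 at 19.0 ± 11.1 CPM, raised by 41.0 CPM in female replicate 3, and Pcdhb9, Pcdhb20, Pcdhb14 and Pcdhb17 at 10.96 to 13.95 CPM. The C-type gene Pcdhac2, known from serotonergic axon tiling, held 27.1% of Pcdha UMIs there (Wilson interval 25.2 to 29.0%), whereas Pcdhac1 averaged 0.40 CPM. ENSMUSG00000023036 (Pcdhgc4 in GENCODE M21, a gene tied to neuron survival) held 21.2% of Pcdhg UMIs, with 10.1 to 15.03 CPM over libraries, while Pcdhgc5 had 3.71 ± 2.1 CPM and Pcdhgc3 0.82 CPM. That row was lower in mature oligodendrocytes, at 1.496 ± 0.908 CPM against 12.9 ± 1.3 CPM in neurons (log2 change -2.48).

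Single cells held few clustered genes at this depth. With each cell thinned to 3000 UMIs, 1.06 clustered genes were found per precursor, 0.605 per neuron, 0.494 per astrocyte, 0.339 per endothelial cell, 0.204 per mature oligodendrocyte and 0.052 per microglial cell. With all UMIs the numbers were 1.26, 1.32, 0.447, 0.365, 0.349 and 0.081, so precursors and neurons changed places with depth. Thinning kept 610 of 814 precursors, 12328 of 14067 neurons, 203 of 562 astrocytes, 186 of 323 endothelial cells, 4732 of 5429 mature oligodendrocytes and 505 of 556 microglia. Single genes numbered 3.46 per thinned precursor and 2.45 per thinned neuron.

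Cells with exactly 2 UMIs of a family show how often both UMIs of a cell come from the same gene. Among 1290 GABA neurons with 2 Pcdhb UMIs, both came from the same gene in 24.8% (Wilson interval 22.5 to 27.2%; 22.5 to 27.0% over the 5 libraries with 20 such cells), where drawing from the pooled gene shares would give 7.22%. In precursors the share was 34.1% of 129 cells against 17.2%, and in mature oligodendrocytes it was 42 of 105 cells (Wilson interval 31.1 to 49.6%) against 7.41%. For Pcdhg it was 19.0% of 705 GABA neurons against 10.3%, with 13.2 to 26.5% over 4 libraries. For Pcdha it was 24.7% of 219 GABA neurons against 15.9%, with 17.3 to 31.6% over 4 libraries, so the lowest libraries of both families came close to the drawn shares. In glutamate neurons Pcdhb gave 25.7% of 167 cells against 7.32%, with 13.04 to 39.4% over 4 libraries. Pcdha gave 17.2% of 29 glutamate neurons (Wilson interval 7.60 to 34.6%) against 15.4%, a difference not detectable at this depth. These shares are descriptions without a test, and cells of 1 library share their pool of mice. The drawn shares pool all cells of a class, whatever kinds it holds. For Pcdha and Pcdhg the gene given to a UMI is uncertain, as stated above. What set the observed shares apart from the drawn ones was not tested.

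Female and male libraries did not differ in any protocadherin by the test. In all cells 67 members were tested and none passed (0.0434% of genes did). No member had an unadjusted p under 0.05 there, against 383 of 16139 genes. None of 57 passed in GABA neurons (0.0502% of genes) and none of 23 in glutamate neurons (0.139%), where 2 female libraries met 3 male ones. In mature oligodendrocytes none of 21 passed (0.0579%). An unadjusted p under 0.05 was found for 2 members and 1305 of 13931 genes in GABA neurons. It was found for 1 member and 1165 of 10791 genes in glutamate neurons. In mature oligodendrocytes it was found for 1 member and 343 of 10371 genes. In GABA neurons Pcdh15 had 35.7, 35.8 and 27.3 CPM in female libraries and 43.1, 44.1 and 41.0 CPM in male libraries. The sexes did not overlap, yet the log2 change of -0.24 ± 0.11 had an adjusted p of 0.54 by edgeR. Altogether 10 of the 57 members (17.5%) had sexes that did not overlap there, against 16.1% of all genes. The counts were 3 of 67 (4.48%) in all cells against 6.7%, 4 of 23 (17.4%) in glutamate neurons against 23.9%, and 0 of 21 in mature oligodendrocytes against 8.3%.

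In mature oligodendrocytes Pcdh11x had 34.8, 35.6 and 44.9 CPM in female libraries and 73.7, 43.0 and 46.7 CPM in male libraries. The sexes overlapped, male replicate 1 stood apart, and the log2 change of -0.59 ± 0.23 had an adjusted p of 1.0. With the replicate number as a block, Pcdh9 was the 1 member to pass, in glutamate neurons: it had 268 and 230 CPM in female libraries and 211, 186 and 241 CPM in male libraries. The sexes overlapped, and the log2 change was 0.33 ± 0.15 at an adjusted p of 0.46 without the block and 0.38 at an adjusted p of 0.0367 with it, by edgeR's quasi-likelihood test; the block raised the share of all genes called there to 3.71%. With the block no member passed in all cells (0.0372% of genes called), GABA neurons (8.31%) or mature oligodendrocytes (0.0675%).

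Within oligodendrocyte precursors, a comparison chosen after its values were seen, Pcdhb9 had 141, 107 and 159 CPM in female libraries and 70.4, 84.4 and 65.9 CPM in male libraries (means 136 ± 26.5 and 73.6 ± 9.7 CPM, SD, n = 3 each). The sexes did not overlap, and since the gene was chosen for these values no test is given. It was 1 of 14 members with at least 50 UMIs whose sexes did not overlap there, where 8.18% of 7743 genes did not.

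**Figure D5:**
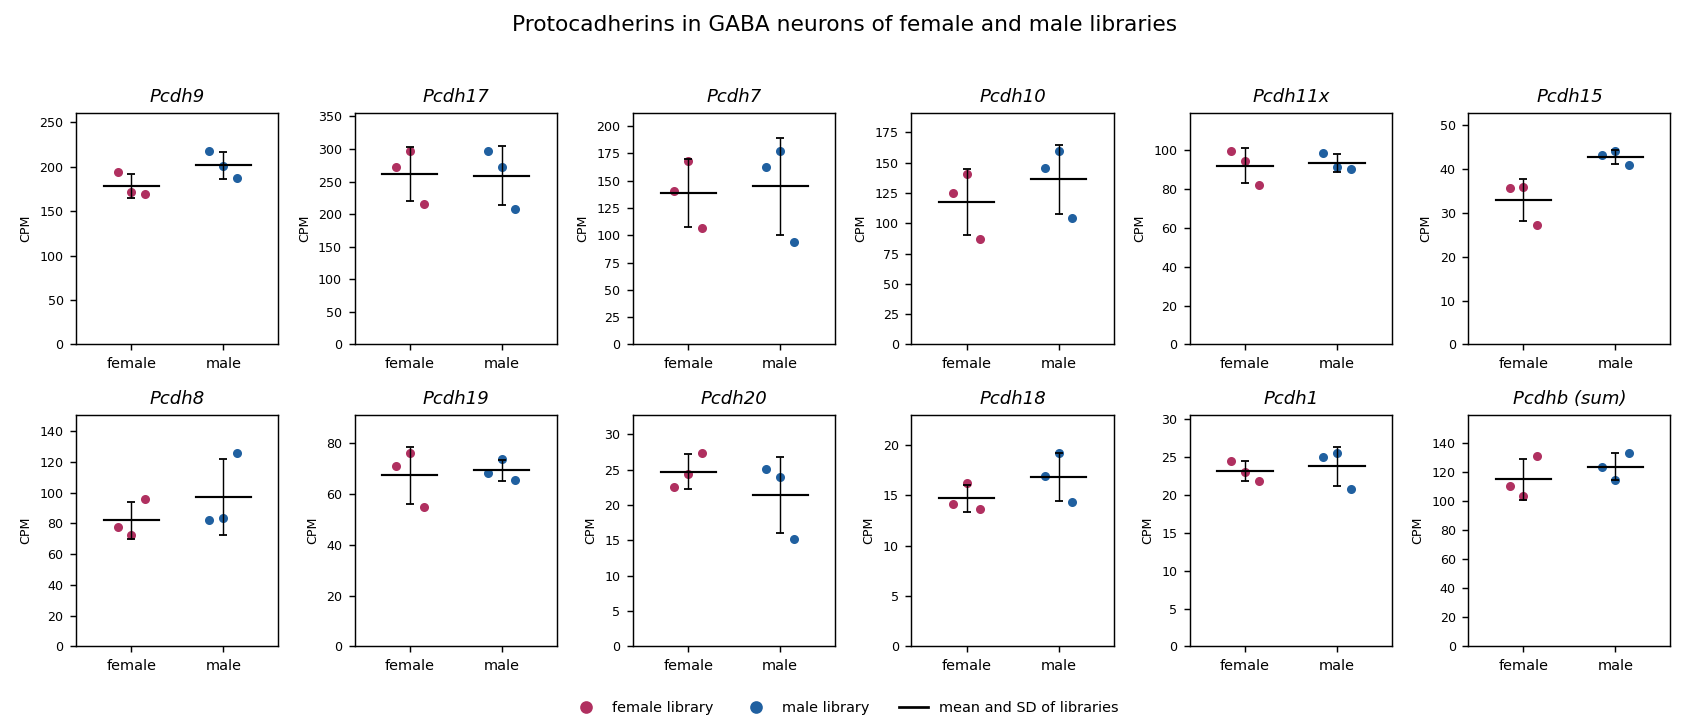
UMI counts (CPM) of 11 single protocadherins and the summed Pcdhb genes in GABA neurons of 3 female and 3 male libraries. Points are libraries, and bars give the mean and SD. Pcdh15 shows the sexes apart, at 27.3 to 35.8 CPM in female and 41.0 to 44.1 CPM in male libraries, and no panel passed the test.

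Genes with a pattern over the 8 classes most like that of the 4 most abundant single protocadherins were sought among 12668 genes, by Pearson correlation of mean log2(CPM + 1). The nearest were Syt11, Exd2 and Ncam2 for Pcdh9 (r = 0.991, 0.990 and 0.989), Ap3b2, Cog6 and Rnaseh2a for Pcdh17 (0.995, 0.991 and 0.989), Atxn2, Ric3 and Fam71e1 for Pcdh7 (0.996, 0.992 and 0.991) and Cadm2, Cog6 and Jagn1 for Pcdh10 (0.991, 0.989 and 0.987). The 8 classes share their libraries, so these values only describe likeness.

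The listed partners of protocadherins were counted the same way. Of 13 factors of promoter choice at the clusters, 12 were tested in oligodendrocyte precursors against neurons, and only Nipbl, the cohesin loader, rose (log2 change 1.06), where 32.1% of all genes passed in either direction. In mature oligodendrocytes Nipbl (1.10) and Stag2 (1.58), a cohesin subunit, were the 2 of 12 that passed, against 49.8% of all genes. In microglia Ctcf (-1.18), Rad21 (-1.05), Smc3 (-1.72) and Setdb1 (-1.32) fell, 4 of 12 where 55.8% of all genes fell. Of 15 cytoplasmic partners, 2 rose and 2 fell in precursors: Cyfip1 of the WAVE complex rose by 2.26 and Fyn, a kinase, by 1.58, while Cyfip2 (-1.10) and Ptk2b (-3.91) fell. Ptk2b, the kinase Pyk2 that Pcdha and Pcdhg tails are known to inhibit, was the 1 of 15 partners to pass between GABA and glutamate neurons (2.21 ± 0.13; 3.85% of all genes passed). In mature oligodendrocytes 3 rose and 3 fell, among them the kinase Ptk2 (1.72) and Cyfip2 (-2.85). Of the 13 classical cadherins and catenins 4 rose and 1 of 11 tested fell in precursors, Cdh8 falling by 2.26, and in mature oligodendrocytes 3 of 11 rose and 5 fell. For the partners and the cadherins alike, the share of all genes that passed was 32.1% in precursors and 49.8% in mature oligodendrocytes. Of the 3 lists no gene passed between the sexes.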

How the data were processed

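The deposited table holds whole-number counts of UMIs per gene and cell, which the authors made with Cell Ranger 2.0.0 on the mm10 build, per the submitters' processing notes. The sources used here do not state the gene annotation, the strand setting or the kit chemistry. Counts were read as deposited and were not divided by gene length. Cells with at least 500 genes and at most 20% mitochondrial UMIs were kept. A class needed at least 3 of its markers and fewer than 3 of every other class; GABA neurons had at least 3 UMIs of Gad1, Gad2 and Slc32a1, and glutamate neurons at least 2 UMIs of the Slc17a6, Slc17a7 and Slc17a8 group with at most 1 UMI of the GABA markers. A marker-positive neuron had at least the number of UMIs (2 or 3) that at most 1% of mature oligodendrocytes reached. Doublets were handled by leaving out cells with several classes; Scrublet (expected rate 0.06) called 1002 cells (3.25%), which were left out in an alternative.

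UMIs were summed per library and class (at least 10 cells) and tested in 28 comparisons with edgeR 4.0.16 (R 4.3.3; quasi-likelihood test, TMM scaling, filterByExpr with a minimum count of 10), with library as a block between classes and Benjamini-Hochberg adjustment over all genes tested. A call needed an adjusted p under 0.05 and, except between sexes, at least a 2-fold change. Standard errors are the log2 change over the root of the test's F value. Many members with few UMIs in a small class were not tested, so counts of members that passed the filter do not describe all 70. Against neurons, a member with few UMIs in the other class could still pass the filter through its neuron counts. The members tested against neurons thus lean toward genes high in neurons. In the marker splits a member with few UMIs in marker-positive cells could likewise pass through the marker-negative cells. The code was tested on simulated data. Alternatives were DESeq2 1.42.0, no filter, no block or a replicate block, other marker numbers, at least 1000 genes, doublets left out and each library left out; at least 4 markers and scaling by library size alone were chosen after seeing the data.

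Female and male libraries with the same replicate number had correlations of 0.534, 0.142 and 0.428 over 15287 genes, and the numbers were taken to pair them. Female replicate 2 correlated more with male replicate 1 (0.379), and the other unmatched pairs stood at -0.497 to -0.0305. Both replicate 3 libraries were the smallest of their sex (410 and 1962 cells). These values do not settle the pairing on which the replicate block rests. The labels name separate pools of mice, not separate days. The text names every single protocadherin, the C-type genes, the most abundant clustered genes in neurons and each member called. Members, gene lists and class markers were chosen with earlier results of these data known. Intervals are 95% Wilson intervals and cover counting error only. The 2 rows with the symbol Pcdha11 and the 2 with Pcdhga8 were kept apart by identifier.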

Additional observations from a re-analysis of the deposited data

Results flagged for a closer look

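In 73 groups of libraries with at least 50 UMIs (a single protocadherin or a summed family in a class) the library farthest from the others was set against the range of its group, a rule that chance meets in about 1 group in 20, and 3 groups met it. Pcdh11x in mature oligodendrocytes was at 73.7 CPM in male replicate 1, while the other libraries were at 34.8 to 46.7 CPM. Pcdh8 in mature oligodendrocytes was at 0.0 CPM in female replicate 3, which had 134 of these cells. The other libraries were at 4.19 to 5.16 CPM, and the class held 128 Pcdh8 UMIs in all. Pcdh10 in oligodendrocyte precursors was at 73.5 CPM in female replicate 3, which had 36 precursors, and at 169 to 215 CPM in the others. The causes were not tested.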

How the results depend on the processing

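Of 111 calls of single genes over the comparisons, 64 were tested in every alternative and kept their direction and threshold there, 17 kept them wherever they were tested but went untested in at least 1 alternative, and 30 were lost in at least 1, 9 of which also went untested somewhere. No direction reversed in the 1447 cases tested; 55 of the 103 losses came through the 2-fold limit alone. In 50 of 1497 cases the gene was not tested. Counts of members called moved by more than 1.5 times as follows. With no filter on low counts, and so more genes tested, there were 40 for mature oligodendrocytes, 15 for precursors, 15 for astrocytes, 39 for microglia and 17 for endothelial cells (all against neurons), 34 for precursors against mature oligodendrocytes, 4 for mural against endothelial cells, 1 for GABA against glutamate neurons, 4 for Drd1 and 0 for Tbr1. With at least 2 markers there were 15 for mature oligodendrocytes, 3 for Vip, 1 for Sst, 0 for Lhx6 and 0 for Adcyap1. With at least 4 markers there was 1 for GABA against glutamate neurons, 2 for mural against endothelial cells, 1 for Sst, and 0 for each of Gal, Lhx6 and Adcyap1. With at least 1000 genes per cell there were 8 for astrocytes and 20 for microglia. Without Scrublet's doublets there was 1 for Gal and 0 for Adcyap1; with DESeq2 1 for Sst and 0 for Lhx6 and Tbr1; with library size alone 0 for Tbr1. Without the library block there was 1 for Th, 1 for Sst and 0 for Tbr1. The replicate block between sexes gave 1 member in glutamate neurons and 0 in all cells, GABA neurons and mature oligodendrocytes, so it changed no other call of a member. The causes were not tested.

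Leaving out 1 library at a time gave 16 to 29 members for mature oligodendrocytes, 6 to 11 for precursors, 3 to 8 for astrocytes, 10 to 20 for microglia, 8 to 12 for endothelial and 12 to 20 for mural cells against neurons. It gave 10 to 15 for precursors against mature oligodendrocytes and 0 to 1 for GABA against glutamate neurons. For the marker splits it gave 5 to 9 for Adora2a, 2 to 5 for Drd1, 6 to 8 for Avp, 1 to 2 for Vip, 2 to 3 for Gal, 1 to 2 for Th, 1 to 2 for Sst, 0 to 2 for Lhx6, 1 to 2 for Moxd1, 0 to 2 for Adcyap1, 1 to 2 for Tcf7l2 and 0 to 1 for Tbr1. The summed families moved by 1 SD or more in 1 of 312 cases: with at least 2 markers the single genes summed to 1474 CPM in glutamate neurons, against 1325 CPM. Classes of few cells limit what could be tested, and clustered genes most of all.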
